A study of Mus musculus with 5 samples.

Results

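This report covers the mouse genes of chromatin remodellers and histone modifiers and where the transcription factor ZFP24 sat relative to them. The genes were chosen by symbol, as protein-coding genes of GENCODE M21 basic whose symbol starts with Smarc, Hdac, Kdm, Kmt or Setd, or with Chd, Brd or Arid followed by a digit. The rule took 88 of the 21827 protein-coding genes, with 13 Smarc, 10 Arid, 10 Chd, 8 Brd, 11 Hdac, 18 Kdm, 8 Kmt and 10 Setd genes. It also took Brd3os, which lies beside Brd3 on the other strand and carries the prefix without being a bromodomain gene.

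ZFP24, a zinc finger protein also called ZFP191, was mapped by chromatin immunoprecipitation sequencing (ChIP-seq) with an antibody to its human counterpart ZNF24. The peak lists came from wild-type differentiated oligodendrocytes (OLG) and wild-type oligodendrocyte progenitor cells (OPC) of strain C57BL/6 at postnatal day 7. Progenitors were immunopanned from brain, and the OLG were made from them in culture over 5 days, with PDGF withdrawn and triiodothyronine added at 40 ng/ml. Zfp191-null OLG, Zfp191-null OPC and input DNA pooled from wild-type and null cells served as controls, with 1 library in each of the 5 groups. The lists held 1752 OLG peaks and 4643 OPC peaks as positions with no score or read count, so library depth is unknown. Cell identity could not be checked against marker genes in such lists, and the reads of the control libraries were not analysed here. No result below has a replicate check, and cell type cannot be told apart from library, depth and peak calling.

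Chromatin remodellers use ATP to slide or evict nucleosomes, and histone modifiers write or erase acetyl and methyl groups that reader proteins with bromodomains and other folds recognise. In the oligodendrocyte lineage of mice, the SWI/SNF ATPase BRG1 (gene Smarca4), the remodellers CHD7 and CHD8 and the histone deacetylases HDAC1 and HDAC2 are known to be needed for progenitors to mature. Genes of this kind are mostly expressed in many tissues from promoters rich in CpG dinucleotides.

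The first sequences shown belong to the 4 genes with a peak in both lists, Smarca4, Smarcd3, Arid2 and Setd7, because in each of them the OLG peak and the OPC peak were separate stretches of DNA. Sequences are from GRCm38 and run 5′ to 3′ on the strand of the gene, and the parts that lie in annotated untranslated exons were left off. Capitals mark each CG dinucleotide.
Smarca4 OLG, chr9:21615635-21615855, plus strand: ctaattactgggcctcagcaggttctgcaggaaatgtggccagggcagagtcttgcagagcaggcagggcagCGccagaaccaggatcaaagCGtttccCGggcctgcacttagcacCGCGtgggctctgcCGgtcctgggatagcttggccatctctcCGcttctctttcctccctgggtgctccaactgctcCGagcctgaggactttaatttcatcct
Smarca4 OPC, chr9:21616446-21616654, plus strand: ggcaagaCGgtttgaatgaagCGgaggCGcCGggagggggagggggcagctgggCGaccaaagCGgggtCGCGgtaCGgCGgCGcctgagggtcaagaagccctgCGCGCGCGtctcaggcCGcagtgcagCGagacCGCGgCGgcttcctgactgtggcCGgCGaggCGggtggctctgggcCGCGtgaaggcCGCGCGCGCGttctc
Smarcd3 OLG, chr5:24598804-24599022, minus strand: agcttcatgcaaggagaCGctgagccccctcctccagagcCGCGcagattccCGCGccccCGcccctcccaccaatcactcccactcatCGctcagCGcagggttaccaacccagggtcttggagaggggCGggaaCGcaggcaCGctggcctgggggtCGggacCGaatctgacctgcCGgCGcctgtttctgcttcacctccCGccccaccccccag
Smarcd3 OPC, chr5:24602203-24602411, minus strand: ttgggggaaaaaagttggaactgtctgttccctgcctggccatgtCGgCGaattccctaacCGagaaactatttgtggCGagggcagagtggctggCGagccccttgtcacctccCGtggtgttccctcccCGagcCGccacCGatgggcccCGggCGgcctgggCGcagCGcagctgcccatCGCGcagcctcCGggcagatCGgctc
Arid2 OLG, chr15:96288459-96288679, plus strand: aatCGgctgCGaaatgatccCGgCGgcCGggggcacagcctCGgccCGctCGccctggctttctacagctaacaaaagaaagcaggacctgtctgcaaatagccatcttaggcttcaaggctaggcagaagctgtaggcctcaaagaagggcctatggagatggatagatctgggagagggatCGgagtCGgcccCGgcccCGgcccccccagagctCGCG
Arid2 OPC, chr15:96287709-96287917, plus strand: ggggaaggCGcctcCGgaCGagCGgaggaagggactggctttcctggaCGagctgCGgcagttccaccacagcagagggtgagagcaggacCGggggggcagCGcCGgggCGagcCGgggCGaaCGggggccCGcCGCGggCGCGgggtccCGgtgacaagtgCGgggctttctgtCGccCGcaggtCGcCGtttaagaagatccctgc
Setd7 OLG, chr3:51560880-51561069, minus strand: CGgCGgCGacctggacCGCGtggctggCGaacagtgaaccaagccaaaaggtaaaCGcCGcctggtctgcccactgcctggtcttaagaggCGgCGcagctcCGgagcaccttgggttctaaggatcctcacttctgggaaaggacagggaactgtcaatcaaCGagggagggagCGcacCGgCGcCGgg
Setd7 OPC, chr3:51561154-51561362, minus strand: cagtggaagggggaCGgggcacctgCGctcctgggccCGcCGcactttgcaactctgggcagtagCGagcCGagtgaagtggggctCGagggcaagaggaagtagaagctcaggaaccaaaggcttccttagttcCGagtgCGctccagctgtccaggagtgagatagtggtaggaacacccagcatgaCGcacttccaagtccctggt
The 8 stretches are rich in G and C, and none holds more than 8 bases in a row of tandem TCAT, the repeat that ZFP24 is known to bind. Of the 2 OPC peaks of Smarcd3, 1 is shown. The number of CG dinucleotides in the printed stretch was 8 in OLG and 30 in OPC for Smarca4, 16 in OLG and 17 in OPC for Smarcd3, 14 in OLG and 24 in OPC for Arid2, and 16 in OLG and 10 in OPC for Setd7. It was thus higher in OPC for Smarca4 and Arid2, lower in OPC for Setd7 and nearly equal for Smarcd3.

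The next sequence is shown because it is the OLG peak near a chromatin gene that did hold the repeat, at Kdm1a. Capitals mark the tract, written on the strand of the gene.
Kdm1a OLG, chr4:136599974-136600194, minus strand: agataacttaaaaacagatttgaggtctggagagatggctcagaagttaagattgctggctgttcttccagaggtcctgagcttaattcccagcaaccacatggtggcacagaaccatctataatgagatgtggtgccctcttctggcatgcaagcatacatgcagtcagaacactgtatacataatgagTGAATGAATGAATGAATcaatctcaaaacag
The Kdm1a tract had 17 bases and lay near the end of the peak that is further downstream in the gene.

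A gene was called bound when the centre of a peak lay within 10 kb of the start of one of its protein-coding transcripts. In OLG, 11 of the 88 chromatin genes were bound, or 12.5% (exact Clopper-Pearson 95% interval 6.41 to 21.3), against 6.42% of all protein-coding genes. In OPC, 19 were bound, or 21.6% (13.5 to 31.6), against 12.6% of all protein-coding genes. In either list 26 genes were bound, or 29.5%, against 17.0% of all genes, and 62 were bound in neither. These intervals cover counting error over genes only. They reach down to 6.41% in OLG, next to the background of 6.42%, and no test of the list against other genes was made.

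**Figure D1:**
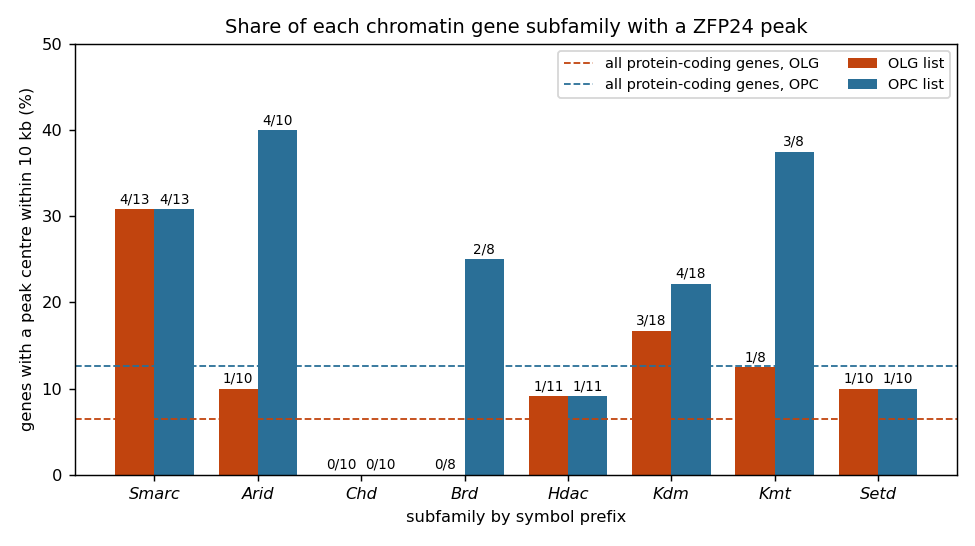
Share of each subfamily (horizontal axis, by symbol prefix) with a ZFP24 peak centre within 10 kb of a start (vertical axis, percent), with OLG bars to the left of OPC bars and counts above them. Dashed lines mark all protein-coding genes, 6.42% in OLG and 12.6% in OPC. The Smarc bars stand at 4 of 13 in each list and no Chd gene has a peak in either.

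The share of bound chromatin genes lay above that of all genes at each window from 1 kb to 50 kb in both lists. In OLG, 8 chromatin genes (9.09%) had a peak within 1 kb against 4.04% of all genes, the same 8 within 2 kb against 4.53%, and 11 (12.5%) within 5 kb against 5.28%. Further out, 13 (14.8%) had an OLG peak within 20 kb against 8.66%, and 18 (20.5%) within 50 kb against 15.0%. In OPC, 11 (12.5%) had a peak within 1 kb against 8.15% of all genes, 14 (15.9%) within 2 kb against 9.13%, and 16 (18.2%) within 5 kb against 10.5%. Within 20 kb there were 25 (28.4%) in OPC against 17.1%, and within 50 kb 36 (40.9%) against 29.0%. The ratio of the share of chromatin genes to that of all genes was 1.95 in OLG and 1.71 in OPC at 10 kb, and lower at 50 kb, at 1.36 in OLG and 1.41 in OPC. With only the lower-numbered peak names of each chromosome, a number whose meaning is not stated, 4 chromatin genes (4.55%) were bound in OLG against 3.74% of all genes, and 14 (15.9%) in OPC against 7.68%. The median distance to the nearest peak over the 87 chromatin genes on chromosomes with peaks was 202529 bp in OLG, against 335022 bp over 21644 genes, and 69174 bp in OPC, against 129442 bp. The remaining chromatin gene, Kdm5d, lies on chromosome Y, where neither list has a peak.

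**Figure D2:**
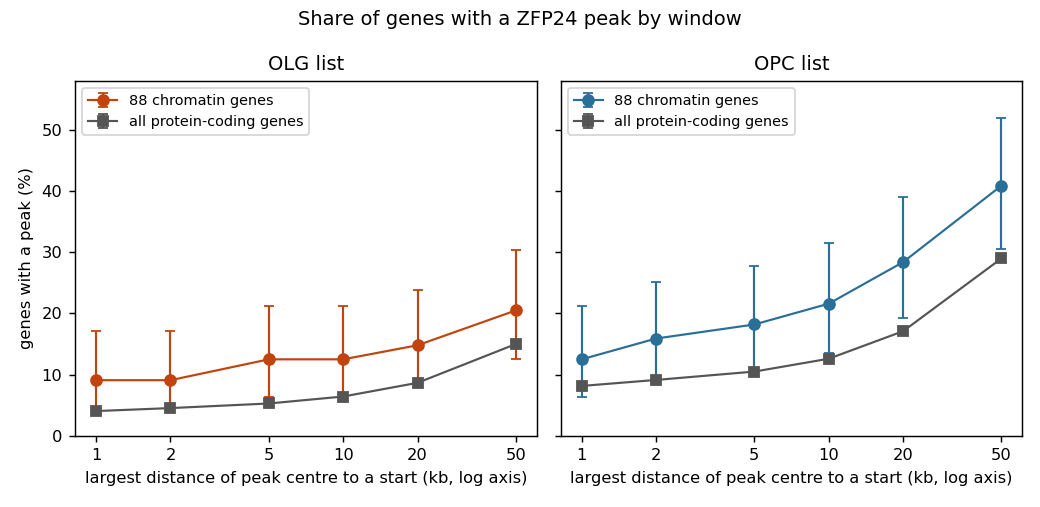
Share of genes with a peak (vertical axis, percent) against the largest distance allowed between a peak centre and a start (horizontal axis, kb, log scale), in OLG (left) and OPC (right). Coloured points are the 88 chromatin genes, grey points all protein-coding genes, and bars are exact 95% intervals for counting error. The coloured points lie above the grey ones at every window; at 10 kb in OLG the interval of the chromatin genes begins at 6.41%, beside the grey point at 6.42%.

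The starts of the chromatin genes also had more GC than those of other genes. In 300 bp around the most upstream start, the median GC content was 65.7% over chromatin genes and 58.7% over all genes, and the median ratio of observed to expected CpG was 0.850 and 0.620. Starts with a GC content of 67.0% or more belonged to 41 of the 88 chromatin genes, or 46.6%, and to 25.9% of all genes. Among these 7 of the 41 (17.1%) were bound in OLG against 10.8% of all genes, and 11 (26.8%) in OPC against 19.3%. Among starts with a GC content from 58.7% up to 67.0%, 3 of 25 (12%) were bound in OLG against 8.04%, and 4 of 25 (16%) in OPC against 15.6%, so that in OPC the shares there were nearly the same. Starts with less GC belonged to few chromatin genes. From 49.7% up to 58.7% GC, 1 of 15 (6.67%) was bound in OLG against 4.54%, and 2 of 15 (13.3%) in OPC against 10.7%. Below 49.7% GC, 0 of 7 were bound in OLG against 2.03%, and 2 of 7 (28.6%) in OPC against 4.57%. The median was 2 starts per gene over chromatin genes and over all genes, but a single start was less common among chromatin genes, with 26 of 88 against 10622 of 21827. Over all genes the bound share in OLG was 5.91% with 1 start, 6.56% with 2 to 3 and 8.53% with 4 or more, and in OPC 11%, 13.0% and 19.8%. For chromatin genes it was 11.5%, 13.2% and 11.1% in OLG, and 15.4%, 26.4% and 11.1% in OPC, the last class holding only 9 genes. The median gene length was 48331 bp over chromatin genes against 17385 bp over all genes. The part of GC content, number of starts and gene length in the counts was not tested.

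**Figure D3:**
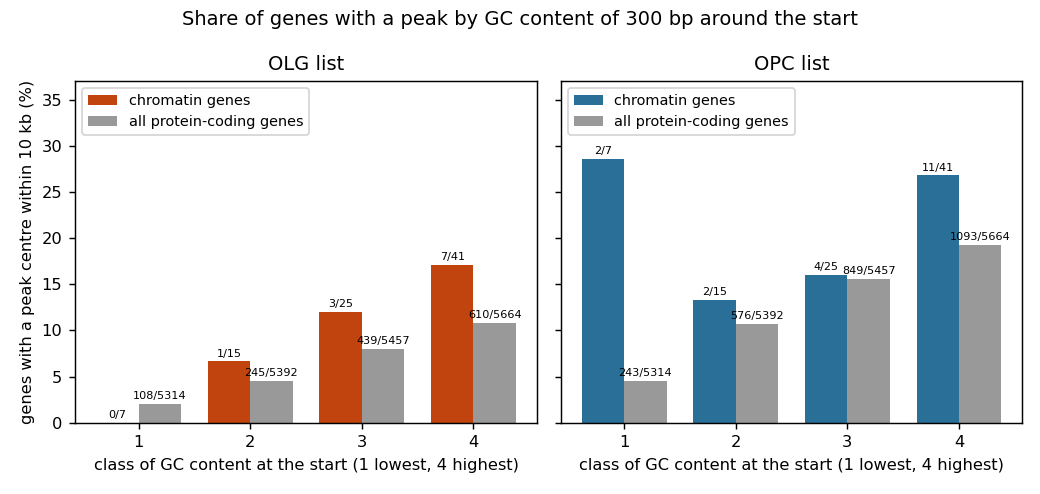
Share of genes with a peak centre within 10 kb (vertical axis, percent) by class of GC content in 300 bp around the most upstream start (horizontal axis, 1 lowest to 4 highest, with like numbers of all genes in each), in OLG (left) and OPC (right). Coloured bars are chromatin genes, grey bars all protein-coding genes, and counts stand above the bars. Grey bars rise with GC, reaching 10.8% in OLG and 19.3% in OPC, and the lowest class holds only 7 chromatin genes.

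The SWI/SNF-related Smarc genes had the largest share in OLG of the 8 subfamilies, 4 of 13 (30.8%, 9.09 to 61.4), and the same count in OPC. The genes bound in OLG were Smarca4, Smarcc2, Smarcd3 and Smarce1, and those bound in OPC were Smarca4, Smarca5, Smarcb1 and Smarcd3. Smarca4 encodes the BRG1 motor of the complex. Its OLG peak lay 424 bp upstream of a start and its OPC peak 286 bp downstream, in an intron, with 805 bp between the centres. The OLG and OPC peaks of this gene thus flanked its starts on opposite sides.

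The next 4 Smarc genes were each bound in a single list. Smarcc2, which encodes the scaffold subunit BAF170, had an OLG peak 613 bp upstream (chr10:128458525-128458745), whereas its nearest OPC peak was 66465 bp away. Smarce1, the gene of the subunit BAF57, had an intronic OLG peak 683 bp downstream (chr11:99230224-99230444), with the nearest OPC peak at 322887 bp. Smarcb1, which encodes the core subunit SNF5, had an OPC peak in an intron 4465 bp downstream (chr10:75917045-75917253), and its nearest OLG peak was 713290 bp away. Smarca5 encodes SNF2H, the motor of the ISWI remodellers and not of SWI/SNF. Its intronic OPC peak lay 730 bp downstream (chr8:80738663-80738871), with no OLG peak nearer than 275187 bp.

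Smarcd3 encodes BAF60C, an accessory subunit. It was the chromatin gene with most peaks, 1 in OLG at 3100 bp downstream and 2 in OPC at 295 bp and 2673 bp upstream, all measured from an internal start. The OPC peaks were in introns of the transcript that begins further upstream, so all 3 peaks were inside the gene. From the most upstream start the OLG peak was 25499 bp away, and Smarcd3 was unbound in both lists when only that start was used. The other 7 Smarc genes had no peak within 10 kb. Smarca2, the BRM motor gene, and Smarcc1, the gene of the scaffold BAF155, came closest, with OPC peaks 15010 bp and 15419 bp upstream. Smarcal1, Smarcd2, Smarcad1, Smarcd1 and Smarca1 had their nearest OPC peak between 46138 bp and 626824 bp away, and the 7 genes had their nearest OLG peak between 256202 bp and 5980677 bp away.

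**Figure D4:**
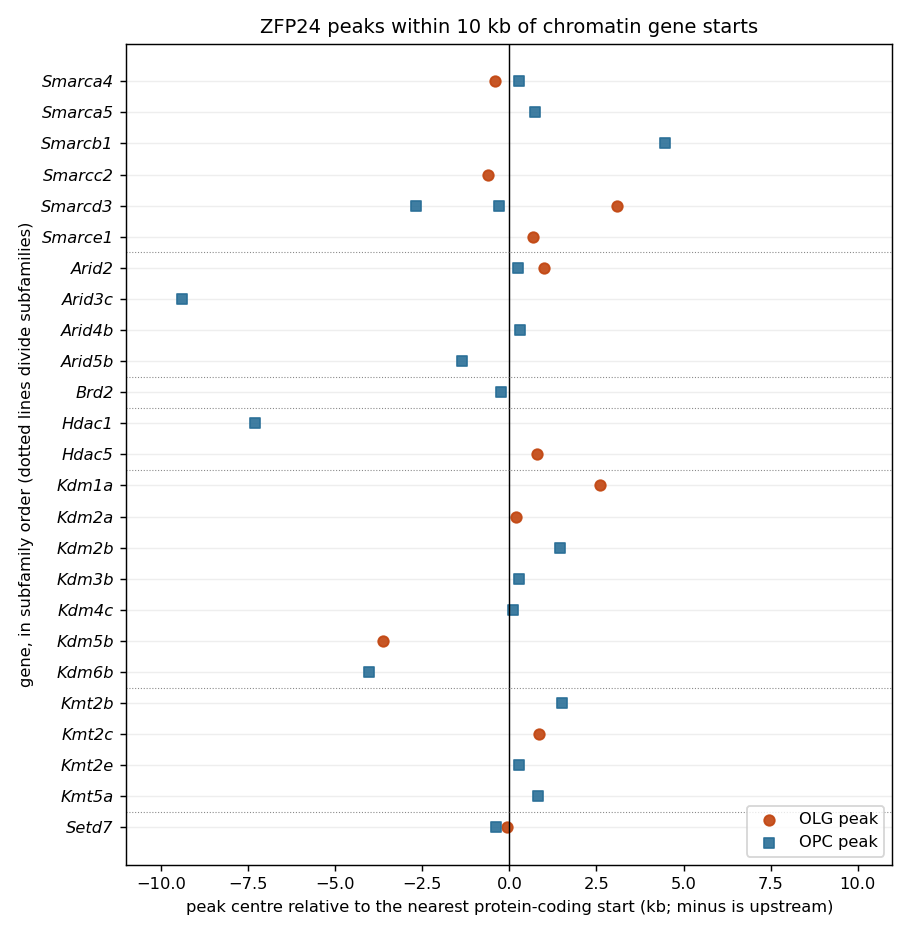
Position of each ZFP24 peak centre (horizontal axis, kb from the nearest protein-coding start, minus is upstream) at 25 of the 26 chromatin genes with a peak within 10 kb (vertical axis, in subfamily order). Circles are OLG peaks and squares OPC peaks. Most points lie within 1 kb of the start, and the genes with both symbols are Smarca4, Smarcd3, Arid2 and Setd7.

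Arid genes, whose proteins bind DNA through the AT-rich interaction domain, were bound 1 of 10 times (10%) in OLG and 4 of 10 times (40%, 12.2 to 73.8) in OPC, the highest OPC share of the 8 subfamilies at this window. Within 5 kb the Arid count in OPC was 3 of 10 (30%), below the 3 of 8 (37.5%) of the Kmt genes. Arid2 encodes BAF200, the ARID subunit of the PBAF form of SWI/SNF. It had an intronic OLG peak 996 bp downstream and an OPC peak 240 bp downstream, with 756 bp between the centres. Arid4b, the gene of a subunit of the SIN3 corepressor complex, had an OPC peak 312 bp downstream in its 5′ untranslated region (chr13:14064007-14064215). That peak was also 623 bp from a start of Ggps1, a gene of isoprenoid synthesis, so it cannot be given to Arid4b alone.

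The other Arid peaks were in OPC. Arid5b, which encodes a partner of the demethylase PHF2, had its peak 1374 bp upstream (chr10:68280010-68280218). Arid3c had a peak 9402 bp upstream (chr4:41740440-41740648) that lay inside Il11ra1, and it was the peak nearest to the 10 kb limit on the inner side. The unbound members were Arid1a, Arid1b, Arid3a, Arid3b, Arid4a and Arid5a. Of these, Arid1b, a gene of the ARID subunits of canonical SWI/SNF, was just outside the limit with an OPC peak in an intron at 11077 bp, while Arid1a had none nearer than 178494 bp in OLG and 279425 bp in OPC.

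No Chd gene was bound, 0 of 10 in each list, for which the exact interval allows a share of up to 30.8%. Their proteins are chromodomain remodellers. Chd7 had its nearest OLG peak 160478 bp and its nearest OPC peak 93957 bp away, and Chd8 had its own at 228111 bp in OLG and 70736 bp in OPC. Chd4, the motor of the NuRD complex, was nearer, with an OPC peak 25799 bp upstream, and Chd2 was nearest of all at 15796 bp upstream in OPC. The Chd genes were not far from peaks as a group, since their median distance was 229016.5 bp in OLG and 57114 bp in OPC, below the medians of all genes. Within 50 kb, 0 of 10 had an OLG peak, against 15.0% of all genes, and 5 of 10 an OPC peak, against 29.0%. The exact intervals were wide, 0 to 30.8% in OLG and 18.7 to 81.3% in OPC.

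Of the genes with the Brd prefix, Brd3os among them, 2 of 8 (25%) were bound in OPC, against 12.6% of all genes. In OLG 0 of 8 were bound, against 6.42% of all genes, and the exact interval allows a share of up to 36.9%. Brd2 encodes a BET protein, a reader of acetylated histones that helps recruit the transcription machinery. It had an OPC peak 253 bp upstream of an internal start (chr17:34118638-34118846), in an untranslated exon of a transcript that begins further upstream, and its nearest OLG peak was 524697 bp away. Brd1, a gene of the acetyltransferase complexes of the MOZ family, had an OLG peak in an intron at 11664 bp, the nearest of all unbound genes in OLG. Brd7 had its nearest OLG peak 62942 bp away, and Brd3os its nearest OPC peak 107001 bp away.

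Histone deacetylase genes were bound at shares near the background in both lists, with 1 of 11 (9.09%) in OLG and 1 of 11 in OPC. Hdac5, the gene of a class IIa deacetylase that shuttles between nucleus and cytoplasm, had an intronic OLG peak 785 bp downstream (chr11:102229229-102229449), and its nearest OPC peak was at 86889 bp. Hdac1 had an OPC peak 7304 bp upstream (chr4:129549913-129550121), inside the neighbouring gene Lck, and its nearest OLG peak was at 27747 bp. That OPC peak held 10 bases of tandem TCAT, and a tract of 31 bases began 90 bases beyond its edge. The related Hdac2 had no peak nearer than 2395727 bp in OLG and 166251 bp in OPC, and Hdac3 none nearer than 342111 bp in OLG and 207721 bp in OPC. The other unbound members were Hdac4, Hdac6, Hdac7, Hdac8, Hdac9, Hdac10 and Hdac11, of which Hdac9 had an OPC peak in an intron at 42453 bp.

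**Figure D5:**
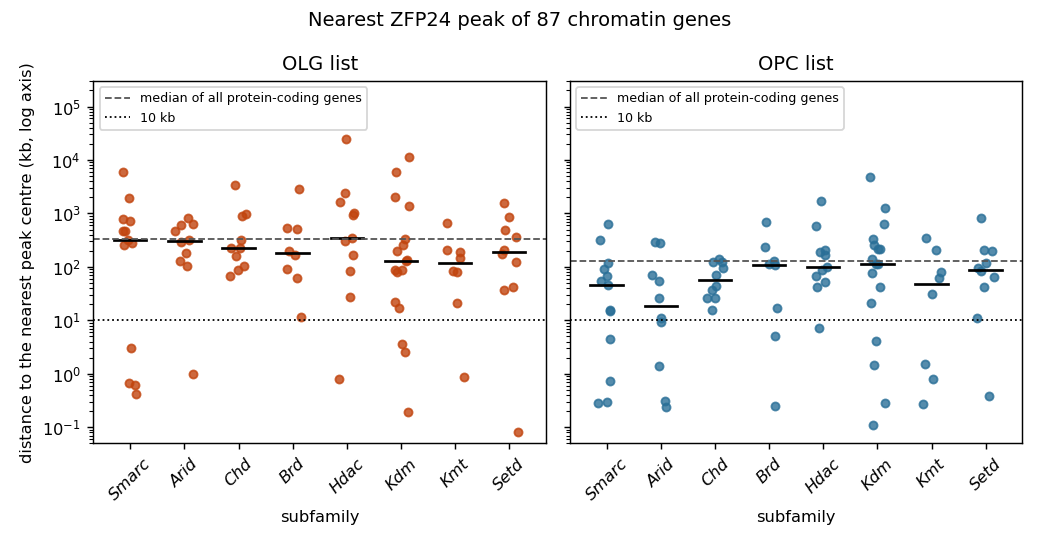
Distance from each of 87 chromatin genes to its nearest peak centre (vertical axis, kb, log scale) by subfamily (horizontal axis), in OLG (left) and OPC (right). Points are genes, short bars subfamily medians, the dashed line the median of all protein-coding genes and the dotted line 10 kb. All Chd points lie above the dotted line in both lists, and the Hdac points lie above it except Hdac5 in OLG and Hdac1 in OPC.

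Lysine demethylase genes formed the largest subfamily. In OLG 3 of 18 (16.7%) were bound, Kdm1a, Kdm2a and Kdm5b, and in OPC 4 of 18 (22.2%), Kdm2b, Kdm3b, Kdm4c and Kdm6b, with none in both. Most genes bound in OLG were not bound in OPC over all genes either, since 32.7% of them were. Kdm1a encodes LSD1, a demethylase that acts in the CoREST complex. Its intronic OLG peak lay 2603 bp downstream with the 17-base TCAT tract printed above, and its nearest OPC peak was at 214325 bp. Kdm2a, the gene of a CpG-binding demethylase, had an OLG peak 190 bp downstream of an internal start in its 5′ untranslated region (chr19:4396777-4396997). That peak was 1398 bp from the most upstream start, and the nearest OPC peak of Kdm2a was at 41434 bp. Kdm5b, which encodes an eraser of the methyl mark of active promoters, had an OLG peak 3635 bp upstream in intergenic sequence (chr1:134556426-134556646), the farthest of the 11 OLG peaks from its gene.

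Kdm2b, the paralogue of Kdm2a, encodes the protein that brings a variant polycomb complex to CpG islands. It had an intronic OPC peak 1460 bp downstream of an internal start (chr5:122986969-122987177), 2750 bp from the most upstream start. The nearest OLG peak of Kdm2b was at 79155 bp. Kdm3b and Kdm4c encode erasers of methyl marks of silent chromatin. The Kdm3b peak lay 283 bp downstream in an intron, and the Kdm4c peak lay 112 bp downstream of an internal start in a 5′ untranslated exon (chr4:74251944-74252152), the closest of the 20 OPC peaks to a start. Kdm6b encodes JMJD3, which removes the polycomb mark. Its OPC peak was 4034 bp upstream and intergenic (chr11:69417605-69417813). The 11 unbound members were Kdm1b, Kdm3a, Kdm4a, Kdm4b, Kdm4d, Kdm5a, Kdm5c, Kdm5d, Kdm6a, Kdm7a and Kdm8. Kdm4b was nearest, with peaks 21678 bp upstream in OLG and 21362 bp upstream in OPC.

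Lysine methyltransferase genes with the Kmt prefix were bound 1 of 8 times (12.5%) in OLG and 3 of 8 times (37.5%, 8.52 to 75.5) in OPC, with none in both. Kmt2c encodes MLL3, which marks enhancers. Its OLG peak was 853 bp downstream in an intron (chr5:25497782-25498002), and its nearest OPC peak was at 31369 bp. Kmt2b, an MLL family gene whose protein writes the active promoter mark, had an intronic OPC peak 1520 bp downstream (chr7:30587093-30587301). Kmt2e, a relative of the MLL genes, had an OPC peak 270 bp downstream in its 5′ untranslated region (chr5:23434615-23434823). Kmt5a, the gene of a histone H4 methyltransferase of dividing cells, had an intronic OPC peak 814 bp downstream of an internal start (chr5:124446203-124446411). That peak was 6377 bp from the most upstream start. The nearest OLG peaks of these 3 genes were 21083 bp, 193425 bp and 649734 bp away, in the order named. Kmt2a, Kmt2d, Kmt5b and Kmt5c were unbound, and none had a peak nearer than 63058 bp.

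Of 10 Setd genes, Setd7 was the only one bound, and it was bound in both lists. It encodes a methyltransferase that acts on histone H3 and on other proteins. The OLG peak was centred 80 bp upstream of its start, the closest of all 31 peaks, and the OPC peak was 379 bp upstream, with 299 bp between the centres. Setd2, which encodes the writer of the methyl mark of transcribed gene bodies, was just outside the limit with an intronic OPC peak 10941 bp downstream. Setdb1 had peaks of both lists at nearly the same place, 41656 bp away in OLG and 41810 bp away in OPC. Setd1a, Setd1b, Setd3, Setd4, Setd5, Setd6 and Setdb2 had no peak nearer than 36702 bp in OLG and 63728 bp in OPC.

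Bound genes were shared between the lists in 4 cases, which was 36.4% of the 11 genes bound in OLG and 21.1% of the 19 bound in OPC. Over all genes 458 were bound in both lists (2.10% of all genes, against 4.55% of the chromatin genes), which was 32.7% of those bound in OLG and 16.6% of those bound in OPC. Of the 4 genes, 3 encode SWI/SNF subunits, a grouping made after their values were seen. None of the 11 OLG peaks and none of the 20 OPC peaks overlapped a peak of the other list. Among all peaks within 10 kb of a protein-coding start, 15.5% in OLG and 7.78% in OPC did. Likewise 0 of the 4 chromatin genes bound in both lists had overlapping peaks, against 229 of the 458 genes (50%), and with so few genes this is a description only.

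The peaks near chromatin genes were mostly at promoters. In OLG, 8 of 11 peaks (72.7%) were within 1 kb of a start, against 71.1% of all OLG peaks near genes, and in OPC 11 of 20 (55.0%), against 69.6%. Of the 11 OLG peaks, 6 were in introns, 4 in intergenic sequence upstream and 1 in a 5′ untranslated region. The 20 OPC peaks were in introns in 11 cases, in 5′ untranslated regions in 4, in intergenic sequence in 3 and in a neighbouring gene in 2. The median GC content in 200 bp around the centre was 66.0% in OLG and 59.8% in OPC, close to the 65.5% and 59.5% of all peaks near genes.

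Tandem TCAT tracts of at least 12 bases, searched on either strand in every phase within the central 200 bp of a peak, were in 1 of 11 OLG peaks (9.09%) and 1 of 20 OPC peaks (5.00%). All peaks near genes held them at 4.07% in OLG and 6.60% in OPC, so these shares differ by a single peak at most. The 300 bp around the most upstream start of each gene were also searched, and other starts were not. None of the 88 chromatin genes held such a tract there, and 12 of all 21827 genes (0.0550%) did. Within 10 kb of their starts, 11 chromatin genes had 14 tracts, of which 1 lay at an OLG peak, that of Kdm1a, and 1 at an OPC peak. The 31-base tract near Hdac1, those of 23 bases near Hdac3 and 21 bases near Brd3os, and the 19-base tract near Setdb1 lay more than 100 bp from any peak centre, as did the 8 tracts of 12 to 15 bases.

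Other chromatin genes, in 10 lists of complexes and enzyme classes without the chosen prefixes, had similar shares. Of 167 listed symbols 166 matched the annotation, and 17 (10.2%) were bound in OLG against 6.42% of all genes, and 37 (22.3%) in OPC against 12.6%, with 7 in both. Subunits of the NuRD, SIN3, CoREST and NCoR corepressors were bound 2 of 22 times in OLG and 7 of 22 times (31.8%) in OPC, among them Mta2 at 355 bp and Sin3a at 253 bp. Polycomb genes were bound 1 of 27 times (3.70%) in OLG and 8 of 27 times (29.6%) in OPC, including Eed at 569 bp and Suz12 at 786 bp, which encode core subunits of the complex that writes the polycomb mark. SWI/SNF subunits without the Smarc or Arid prefix had 2 of 17 in OLG and 4 of 17 in OPC, with Bcl7a in both.

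The remaining lists were small, and some lay near or below the shares of all genes. The list of INO80, SRCAP, TIP60 and ISWI subunits had 1 of 23 (4.35%) in OLG and 4 of 23 (17.4%) in OPC. The OLG gene was Hells, a remodeller gene on that list that is not a subunit of these complexes. In OPC the motor gene Ino80 itself had a peak at 59 bp. Acetyltransferases had 2 of 14 in OLG and 4 of 14 in OPC, and other methyltransferases 3 of 23 in OLG and 5 of 23 in OPC. The list of other demethylases had 2 of 9 in OLG and 3 of 9 in OPC. Among the 3 was Hif1an, which does not encode a histone demethylase. Sirtuins had 1 of 7 in OLG and 0 of 7 in OPC, cofactors of the MLL enzymes 2 of 12 (16.7%) in OLG and 1 of 12 (8.33%) in OPC, and DNA methylation genes 1 of 12 (8.33%) in each. The last was Uhrf1, whose protein guides maintenance methylation, with an OLG peak at 48 bp and an OPC peak at 364 bp that held a 38-base TCAT tract.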

How the data were processed

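Reads of 75 nt, single-end per the labels' protocols, were processed with BWA and HOMER 4.8.3 on the mm10 build, per the submitters' processing notes. The deposited lists hold peak positions only, 221 bp wide in OLG and 209 bp in OPC. Peak-calling settings, the threshold and how the controls entered the calling were not given in the sources used here. Positions were compared with GRCm38.p6, in which 0 peaks ran past a chromosome end, and are 1-based.

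Starts were those of protein-coding transcripts in GENCODE M21 basic on chromosomes 1 to 19, X and Y, with genes merged by symbol. Distances run from peak centre to nearest start. Peaks of the lists sharing 1 bp or more counted as overlapping. Calculations used Python 3.11.15, numpy 2.4.6 and scipy 1.17.1, and steps were tested on simulated data. With 1 library per list, shares were set beside those of all genes with no test. Bound genes, the nearest unbound ones and 6 lineage regulators (Smarca4, Chd7, Chd8, Hdac1, Hdac2 and Hdac3) were named by rule, and other unbound members were added to account for the list. The counts include 1 bound gene that is not reported here on its own. The gene group and lists were chosen with earlier results of these data known.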

Additional observations from a re-analysis of the deposited data

How the results depend on the processing

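No paired analysis was possible because each list comes from 1 library. The counts of bound chromatin genes stayed within 1.5 times the 11 in OLG and 19 in OPC under most other settings. They were 18 in OLG (all genes 15.0%) and 36 in OPC (29.0%) at 50 kb. Lower numbers in the peak names were used as a stand-in for a stricter threshold, though what the number means is not stated. With only these, 4 were bound in OLG (4.55%, against 3.74% of all genes) and 14 in OPC (15.9%, against 7.68%). The OLG share was then close to that of all genes, and whether these peaks are the stronger ones was not tested. Genes bound in both lists numbered 12 at 50 kb, against 4. Centres within 500 bp, in place of overlap, joined 1 OLG and 1 OPC peak. A promoter window of 500 bp kept 3 of 8 OLG peaks. Tracts of 8 bases were in 3 OPC peaks, against 1. Leaving out Brd3os, chosen after seeing the data, left the 11 bound genes in OLG and 19 in OPC as they were. Depth is unknown and may limit both lists, since a gene without a peak may lie below the calling threshold.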

Other observations

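Beyond 10 kb of a start, 7 further peaks lay inside chromatin genes, all in introns. In OLG they were in Arid1b, 324236 bp from the nearest start, in Kdm4b at 23850 bp and in Brd1 at 11664 bp. In OPC they were in Arid1b at 11077 bp, Chd5 at 26474 bp, Hdac9 at 42453 bp and Setd2 at 10941 bp. Chd5 encodes a remodeller known from neurons. None of the 7 overlapped a peak of the other list or held a TCAT tract of 12 bases. Arid1b was thus the only chromatin gene with such an intronic peak in both lists, at separate places. An OLG peak 17314 bp upstream of Kdm3b did overlap an OPC peak, while the OPC peak at the Kdm3b start had no OLG counterpart.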
